A study of Micropterus salmoides with 45 samples.

Results

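Livers of fish held for 8 h under severe hypoxia were compared with livers of control fish sampled at the same hour. The species was the largemouth bass, Micropterus salmoides, a predator of fresh water. All libraries labelled severe hypoxia 8 h and control 8 h were taken, which makes 6 of the 45 libraries of the series, 3 in each group. Dissolved oxygen was kept at 1.2 ± 0.2 mg/L for the severe hypoxia group and at 7 mg/L for the control group. Both groups shared the rest of the treatment: fish aged 6 months, water at 20 °C, no feeding during the trial, and closed tanks. The 270 fish were held in 9 tanks of 30, with 3 tanks per oxygen level, and 5 fish were collected from a tank. Oxygen was driven out with nitrogen gas within the first hour, and the time at which the level was reached counted as 0 h. A moderate hypoxia group and samplings at 0, 4, 12 and 24 h complete the series.

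Fish liver stores glycogen, releases glucose into the blood and makes, burns and exports lipid. When oxygen runs short, vertebrate cells stabilise hypoxia-inducible factors, transcription factors that raise genes of glycolysis and glucose uptake, while processes that consume oxygen or much ATP are slowed. The study asked how acute hypoxia shifts the use of glucose and lipid in this organ. The genes here carry only the identifiers of a de novo assembly, such as c84833_g1, where c is followed by the number of an assembled component and g by a gene within it. The deposited tables do not pair these identifiers with names, and 0 of 2660 matched the reference gene table at hand. No gene is therefore given a role, and the tissue could not be checked against liver markers.

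The tables held levels in RPKM, a read density corrected for gene length and for the total of the library, so that genes of different length can be compared. The 6 libraries had between 30912608 and 32976112 reads, recovered from the RPKM values, and the listed genes held 11.4% to 14.0% of them. Control 8 h replicate 2 had values for 2527 genes, so 133 genes rest on 5 libraries. Control 8 h replicate 3 stood apart in 1 respect: it had 1011 reads in a set of 23 genes for which control 8 h replicates 1 and 2 had 0 reads, and results that rest on it are given with and without it. Whether a group's 3 libraries stem from different tanks or fish is not in the labels, and the p-values thus reflect the spread between these 6 samples and the others fitted with them, which may be technical. As each oxygen level had its own tanks, tank and oxygen level cannot be told apart.

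Severe hypoxia at 8 h went with higher levels of 570 genes and lower levels of 495 genes, out of 2656 tested. These are 21.5% and 18.6% of the genes tested, 40.1% in both directions together. Only the 2660 listed genes could be tested, and the rule by which they were listed is unknown. Shares of tested genes, at 8 h and at the other times, thus describe this list and not all genes of the liver. Whether the list favours genes that change was not tested. A gene was called at an adjusted p under 0.05 in limma, fitted to log2(RPKM + 1) of all 45 libraries, a scale that understates the change of genes with low levels. The median log2 change over all tested genes was -0.01. In bulk liver, a lower level from fewer cells of a type and one from less RNA per cell cannot be told apart. Among the 2523 genes present in all 6 tables, 705 (27.9%) had every severe library above every control library, and 650 (25.8%) had every severe library below every control library. Of the called genes in those tables, 511 of 549 higher ones and 451 of 482 lower ones had groups that did not overlap. The calls were drawn from these same libraries, so these shares are largely fixed by that choice. At an unadjusted p under 0.05 there were 1316 genes, and limma-voom on the recovered reads called 947 of 2523.

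On the log2(RPKM + 1) scale, rises reached further than falls. A fall is bounded on this scale by the control level, while a rise has no such bound, so the sizes are not on equal terms. Among the genes called higher, 147 changed by less than 2-fold, 321 by 2-fold to 4-fold, 75 by 4-fold to 8-fold and 27 by 8-fold or more, all on the log2(RPKM + 1) scale. Among the genes called lower these numbers were 172, 307, 12 and 4. The median log2 change was 1.29 for the higher genes, with a range of 0.50 to 6.76, and -1.12 for the lower genes, with a range of -0.54 to -3.35. The higher genes had a median level of 9.29 RPKM in severe hypoxia and 2.50 RPKM in control, and the lower genes had a median level of 2.60 RPKM in severe hypoxia and 7.20 RPKM in control.

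**Figure D1:**
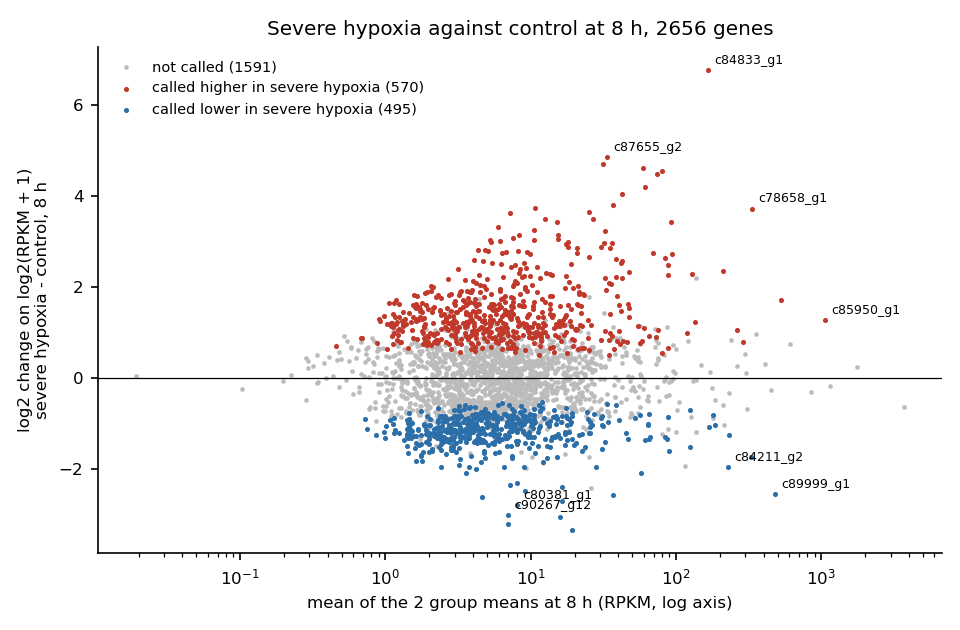
Log2 change of each of the 2656 tested genes in severe hypoxia relative to control at 8 h (vertical axis, log2(RPKM + 1) scale) against the mean of its 2 group means in RPKM on a log axis (horizontal axis); genes called higher are red, genes called lower blue and the others grey. Rises extend to 6.76, while falls, which this scale bounds by the control level, end at -3.35.

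Genes are named below, unless stated otherwise, from those called with a mean of at least 5 RPKM over the 6 libraries, no missing value and groups that did not overlap. The largest rise by log2 change belonged to c84833_g1, a gene of 3872 bp. It had 722.6, 251.0 and 14.9 RPKM in the 3 severe libraries, against 0.410, 0.0809 and 0.496 RPKM in the 3 control libraries. Behind these levels were 86493, 32047 and 1828 reads in severe hypoxia, against 50, 10 and 60 reads in control. The groups did not overlap, but the severe libraries lay far from each other, with replicate 1 highest and replicate 3 lowest. Its log2 change was 6.76 (SE 0.91, adjusted p = 1.29e-06, limma), with a spread estimated over all 45 libraries. Fitted to the 6 compared libraries alone, the adjusted p of c84833_g1 was 0.00379 (limma), and limma-voom gave 0.00105. Every control library was under 0.5 RPKM for it.

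The next largest rise, c87655_g2 (6610 bp), was more even. It had 74.0, 81.7 and 40.0 RPKM in severe hypoxia, against 1.79, 0.806 and 1.10 RPKM in control, a log2 change of 4.85 (SE 0.43, adjusted p = 2.43e-10, limma). All 3 severe libraries stood far above all 3 control libraries.

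The smallest p-values among the rises were those of c81308_g1 and c88960_g1. The level of c81308_g1 (3724 bp) was 121.8, 155.7 and 148.5 RPKM in severe hypoxia, against 7.61, 2.59 and 7.52 RPKM in control, and its log2 change was 4.47 (SE 0.38, adjusted p = 1.2e-10, limma). For c88960_g1 (3129 bp) the levels were 27.7, 65.6 and 91.8 RPKM in severe hypoxia, against 1.52, 1.02 and 1.01 RPKM in control, with a log2 change of 4.69 (SE 0.41, adjusted p = 1.92e-10, limma). In both genes the 2 groups were wide apart; severe 8 h replicate 1 was the lowest of the severe libraries for both, which is the reverse of its place for c84833_g1.

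Among the falls, c90267_g12 and c80381_g1 were the largest by log2 change. The gene c90267_g12 (602 bp) had 0.967, 0.202 and 0.890 RPKM in severe hypoxia, against 8.22, 21.4 and 10.4 RPKM in control, from 18, 4 and 17 reads in severe hypoxia, against 156, 412 and 196 reads in control. Its log2 change was -3.02 (SE 0.64, adjusted p = 0.000521, limma). At 8 h all severe libraries were under 1 RPKM and all control libraries over 8 RPKM for it. Control libraries of other times ran as low as 0.269 RPKM, in control 4 h replicate 3. In severe hypoxia the gene was already at 2.39, 1.98 and 1.89 RPKM at 0 h. With the 0 h difference taken off it was not called (-1.74, adjusted p = 0.213, limma). The gene c80381_g1 (958 bp) had 0.675, 0.823 and 2.04 RPKM in severe hypoxia, against 6.89, 19.6 and 18.0 RPKM in control, and a log2 change of -2.79 (SE 0.74, adjusted p = 0.00392, limma). Here the control libraries of 8 h differed from each other, replicate 1 being the lowest, yet none came near the severe libraries. At other times control libraries went down to 2.91 RPKM of this gene, in control 4 h replicate 3.

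The smallest p-values among the falls belonged to c90715_g3 and to c89999_g1, which is described with the abundant genes. The gene c90715_g3 (3726 bp) had 5.38, 5.36 and 4.54 RPKM in severe hypoxia, against 12.9, 13.7 and 11.4 RPKM in control, a log2 change of -1.16 (SE 0.18, adjusted p = 1.43e-05, limma). Its 3 severe libraries were close to each other, as were its 3 control libraries, and the groups did not overlap.

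**Figure D2:**
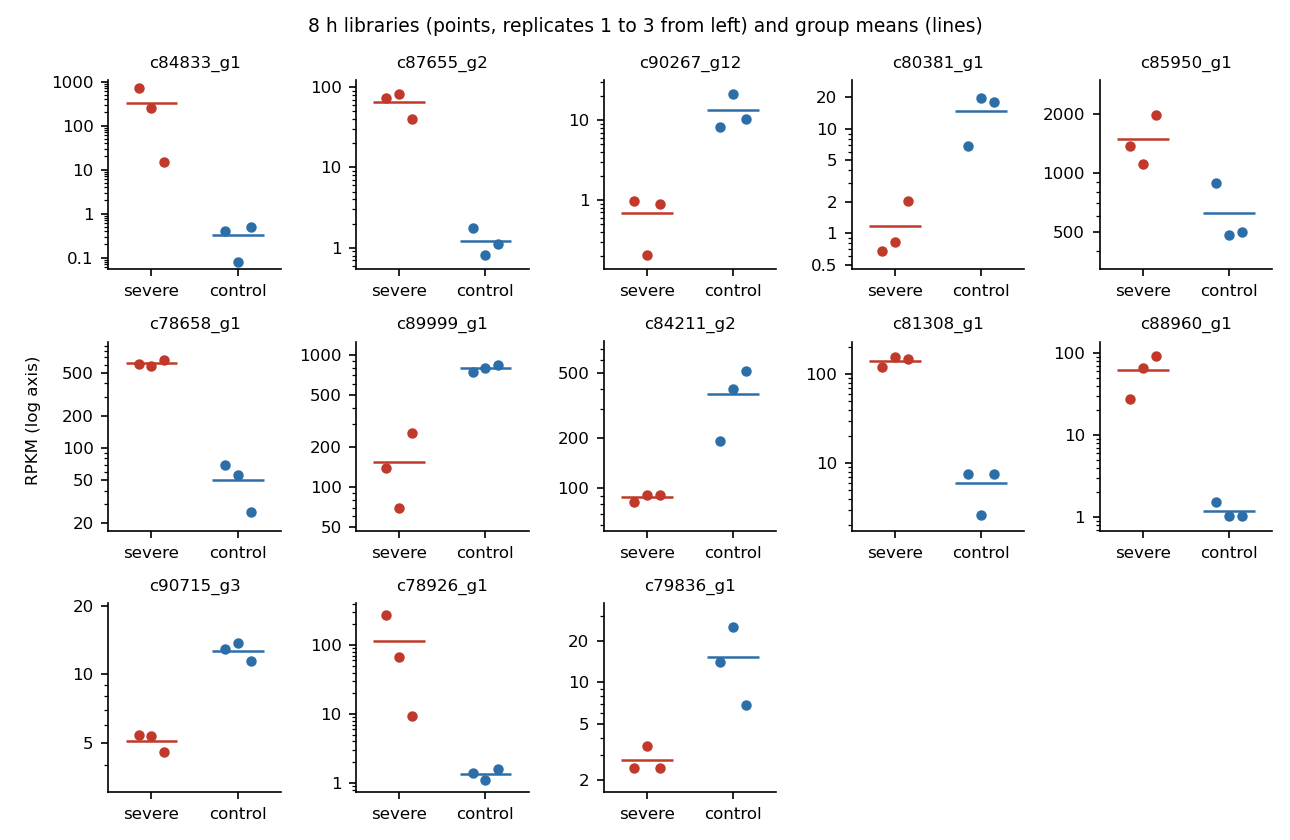
Levels in RPKM of 13 named genes, a panel each with its own log axis, with severe hypoxia 8 h left of control 8 h, a point per library (replicates 1 to 3 from the left) and a line at the group mean. The severe points of c84833_g1 are spread from 14.9 to 722.6 RPKM, while those of c81308_g1 lie between 121.8 and 155.7 RPKM.

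Genes were also ranked by the difference in level in RPKM, a measure that favours abundant genes. The largest gains were c85950_g1 and c78658_g1. The gene c78658_g1 (3128 bp) had 612.0, 586.3 and 655.3 RPKM in severe hypoxia, against 69.1, 55.7 and 25.4 RPKM in control, and its log2 change was 3.71 (SE 0.43, adjusted p = 1.58e-07, limma). Its severe libraries differed by little at 8 h and lay clear of the control libraries. At 0 h they already lay above control, with 92.2, 135.7 and 97.4 RPKM in severe hypoxia, against 35.7, 53.1 and 32.8 RPKM in control.

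The gene c85950_g1 (2009 bp) was abundant in both groups, with 1371, 1107 and 1977 RPKM in severe hypoxia, against 886.4, 484.1 and 500.0 RPKM in control. The lowest severe library was above the highest control library, and the log2 change was 1.27 (SE 0.48, adjusted p = 0.0337, limma). This call ended when severe 8 h replicate 1 or 3, or control 8 h replicate 2 or 3, was left out, with adjusted p of 0.0576, 0.145, 0.11 and 0.103.

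The largest losses of level were those of c89999_g1 and c84211_g2. The gene c89999_g1 (4816 bp) had 138.8, 69.9 and 256.3 RPKM in severe hypoxia, against 749.6, 800.4 and 844.1 RPKM in control, a log2 change of -2.55 (SE 0.42, adjusted p = 2.73e-05, limma). The control libraries were alike, and even the highest severe library was far below them. The gene c84211_g2 (1505 bp) had 82.4, 90.3 and 90.9 RPKM in severe hypoxia, against 192.7, 401.8 and 517.2 RPKM in control, and a log2 change of -1.95 (SE 0.60, adjusted p = 0.0111, limma). For this gene the spread lay in the control group, and without control 8 h replicate 3 the call ended (log2 change -1.65, adjusted p = 0.0566).

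Summed over the 549 called higher genes present in all 6 tables, the level was 14540, 12960 and 15010 RPKM in severe hypoxia, against 5066, 3781 and 4013 RPKM in control. For the 482 called lower genes it was 3430, 3408 and 3422 RPKM in severe hypoxia, against 8852, 9663 and 8482 RPKM in control. These sums describe genes chosen by their difference and are given without a test. The gain over the higher genes was 9883 RPKM, of which 10 genes held 34.1%, and the difference over the lower genes was -5579 RPKM, of which 10 genes held 38.4%.

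The sum over all 2523 genes was 43500, 41110 and 46580 RPKM in severe hypoxia, against 43080, 42300 and 38490 RPKM in control. The groups overlapped, with means of 43730 ± 2740 and 41290 ± 2460 RPKM (SD, n = 3 each) and a 2-sided exact permutation p of 0.4, where 3 against 3 cannot give less than 0.1. The number of genes with at least 1 read was 2509, 2510 and 2500 in severe hypoxia, against 2482, 2479 and 2504 in control (2-sided exact permutation p = 0.2). Genes at 1 RPKM or more numbered 2337, 2300 and 2263 in severe hypoxia, against 2288, 2239 and 2303 in control (2-sided exact permutation p = 0.5). The groups overlapped in the sum and in the number of genes at 1 RPKM or more, with and without control 8 h replicate 3. In the number of genes with a read they overlapped through control 8 h replicate 3 alone, since 2482 and 2479 in the other controls were below all severe libraries. When the 23 genes were taken out of that number it was 2486, 2487 and 2477 in severe hypoxia, against 2482, 2479 and 2481 in control, and the groups overlapped. The set was chosen for reads in every severe 8 h library, so its removal lowers each severe count by its full size. That overlap is thus largely fixed by the choice, and nothing is read from it.

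A small number of genes were near 0 in one group and clearly present in the other. With every control library under 0.5 RPKM and every severe library at 2 RPKM or more there were 10 genes, c84833_g1 among them. The other 9 averaged 2.39 to 14.3 RPKM in severe hypoxia and 0.0932 to 0.316 RPKM in control, with log2 changes of 1.63 to 3.63 and adjusted p of 3.03e-07 to 0.000423 (limma). The reverse pattern was found in 3 genes, named after their values were seen. The gene c76490_g1 had 0.387, 0.257 and 0.408 RPKM in severe hypoxia, against 2.40, 5.98 and 5.07 RPKM in control (log2 change -1.96, SE 0.44, adjusted p = 0.000884, limma). The gene c84026_g1 had 0.239, 0.420 and 0.262 RPKM in severe hypoxia, against 3.27, 3.08 and 3.35 RPKM in control (log2 change -1.70, SE 0.32, adjusted p = 0.00016, limma). The gene c91156_g6 had 0.419, 0.135 and 0.450 RPKM in severe hypoxia, against 3.15, 3.22 and 2.22 RPKM in control (log2 change -1.53, SE 0.34, adjusted p = 0.000884, limma). These 3 genes had reads in every severe library, so none of them was absent there. Both sets were picked by their levels in these same libraries. Their log2 changes and adjusted p are thus largely fixed by that choice, and nothing is read from them.

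The set of 23 genes mentioned above was picked after the data were seen, by 2 conditions: reads in each of the 3 severe 8 h libraries, and reads in no more than 4 of the 39 libraries that belong to neither group. The rule used the severe libraries, so no test is drawn from the set. Its summed level was 68.9, 49.1 and 58.6 RPKM in severe hypoxia, against 0, 0 and 36.6 RPKM in control, from 1678, 1444 and 1588 reads in severe hypoxia, against 0, 0 and 1011 reads in control. All 23 genes had reads in control 8 h replicate 3. Per gene, the level in that library was 0.313 to 0.994 times the mean of the severe libraries, with a median of 0.632. The genes were low throughout, with no value above 6.88 RPKM, and came from 19 components.

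Reads of the set also appeared in 7 of the 39 other libraries. In severe 4 h replicate 1 they covered 14 genes with a summed level of 28.8 RPKM, in severe 4 h replicate 2 they covered 8 genes with 1.44 RPKM, and in control 24 h replicate 1 they covered 9 genes with 1.26 RPKM. The remaining 4 libraries had reads of 1 gene each. A count of 0 in a control library allows up to 3 reads, which is 0.208% of the lowest severe sum and covers counting error only. All 23 genes were among the 570 called higher (21.5% of all tested genes), which the choice of the set by reads in severe 8 h libraries largely fixed, so nothing is read from it. Their median log2 change was 1.24, and 1.65 without control 8 h replicate 3.

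In the comparison as a whole, 910 genes were called when that control library was left out. Whether the origin of the reads of the 23 genes bears on their calls was not tested.

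**Figure D3:**
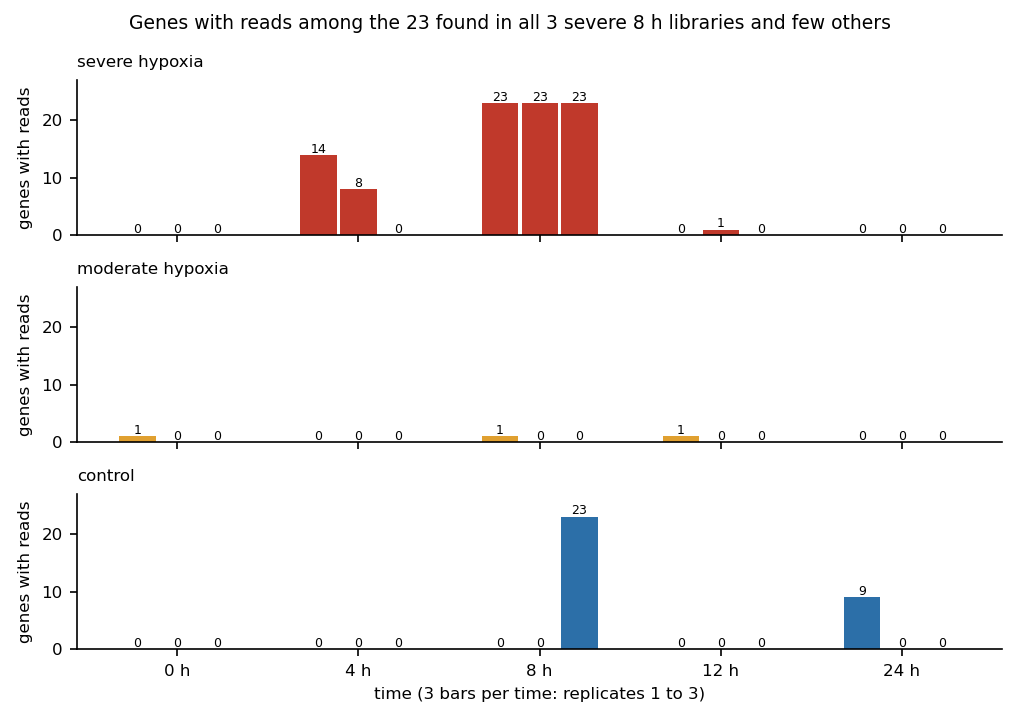
Number of the 23 genes with at least 1 read in each of the 45 libraries (bars, with the number above), in panels for severe hypoxia, moderate hypoxia and control, with 3 bars per time for replicates 1 to 3. Control 8 h replicate 3 has reads in all 23, as the severe 8 h libraries do by the rule, while control 8 h replicates 1 and 2 have 0.

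The 3 severe libraries were about as alike as the 3 control libraries. The median over genes of the SD of log2(RPKM + 1) was 0.324 in severe hypoxia 8 h and 0.321 in control 8 h, and over the 15 groups of the series this value ran from 0.25 to 0.552. Pearson's r over 2523 genes, a description since genes are not independent, was 0.870 to 0.943 among the severe libraries, 0.887 to 0.943 among the control libraries and 0.649 to 0.757 between the groups. Wide differences within a group were counted among the called genes only, and a wide spread makes a call less likely. In 38 of the 570 called higher genes, the severe libraries spanned 2 or more on the log2 scale, against 9 in which the control libraries did. Severe 8 h replicate 1 was the highest library in 26 of these 38 genes, replicate 3 in 11 and replicate 2 in 1. Among the called lower genes, 2 had such a span in severe hypoxia and 6 in control. In each list the group with the lower levels had fewer such spans. The log2(RPKM + 1) scale narrows spans at low levels, so these numbers do not compare the spread of the groups.

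The gene with the widest rise, c84833_g1, shared its order of libraries with c78926_g1 (2933 bp). This gene had 273.7, 66.5 and 9.34 RPKM in severe hypoxia, against 1.37, 1.09 and 1.60 RPKM in control, a log2 change of 4.62 (SE 0.82, adjusted p = 7.34e-05, limma). In severe hypoxia at 4 h the 3 libraries had 103.8, 87.4 and 17.7 RPKM of c84833_g1 and 65.3, 37.6 and 8.05 RPKM of c78926_g1. At 12 h they had 246.4, 8.66 and 119.7 RPKM of c84833_g1 and 140.9, 6.47 and 58.6 RPKM of c78926_g1. At 24 h they had 36.6, 307.2 and 16.7 RPKM of c84833_g1 and 29.2, 101.7 and 6.88 RPKM of c78926_g1. At each of these times the library that was highest for one gene was highest for the other, and the lowest was the lowest, so the rises of the pair are not independent of each other.

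Because the oxygen levels were kept in different tanks, the difference at 8 h was also set against the difference at 0 h. The severe level had been reached by 0 h, so any response to low oxygen up to then is taken off along with tank differences. These cannot be told apart. After the 0 h difference was taken off, 102 genes were higher (3.84%) and 38 lower (1.43%), 140 in all (5.27%), and 675 passed an unadjusted p under 0.05. Of the 570 genes called higher at 8 h, 101 were called in this contrast, and of the 495 called lower, 38. This contrast holds the 8 h libraries by which both lists were chosen, so the overlap is partly fixed by that choice. The contrast takes in 12 libraries and has a larger error, since it combines the errors of the differences at 8 h and at 0 h. At 0 h itself, severe hypoxia against control gave 0 called genes by limma and 0 by voom, and 161 and 132 genes had an unadjusted p under 0.05. Over the 570 genes the median log2 change at 0 h was 0.191, and 68.4% were on the higher side, against 48.3% of all tested genes. Over the 495 genes the median at 0 h was -0.125, and 69.1% were on the lower side, against 50.8% of all tested genes. With the 0 h difference taken off, the median was 1.12 over the called higher genes and -0.97 over the called lower genes, again from the 8 h libraries that chose them. The count was 69 and 86 without severe 8 h replicate 1 or 2 and 60 and 51 without control 8 h replicate 1 or 2, and voom called 32, with 589 at an unadjusted p under 0.05.

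Among genes called both ways, with the same minimum level, the largest values in this contrast were those of c84833_g1, at 6.41 (SE 1.28, adjusted p = 0.00346, limma), and c78926_g1, at 4.06 (SE 1.16, adjusted p = 0.035, limma). On the lower side stood c89999_g1, at -2.10 (SE 0.59, adjusted p = 0.0341, limma), and c79836_g1, at -1.98 (SE 0.59, adjusted p = 0.0415, limma). The level of c79836_g1 (3995 bp) at 8 h was 2.44, 3.49 and 2.43 RPKM in severe hypoxia, against 14.1, 24.8 and 6.93 RPKM in control, with no overlap but with control replicates that differed widely. Against control at 8 h alone its log2 change was -1.96 (SE 0.42, adjusted p = 0.000563, limma). Relative to 0 h, c84833_g1 stayed called whichever 8 h library was left out. The call of c78926_g1 ended when any 1 of the 8 h libraries other than severe replicate 3 was left out (adjusted p of 0.0507 to 0.111), and so did that of c89999_g1 (0.0544 to 0.101), which also ended after quantile normalization (0.0656). The call of c79836_g1 ended when any 1 of them other than control replicate 3 was left out (0.0559 to 0.134). Voom called none of these 4 genes relative to 0 h, with adjusted p of 0.197, 0.103, 0.0585 and 0.068 in the order c84833_g1, c78926_g1, c89999_g1 and c79836_g1. Of the genes named above for size or p, c78658_g1, c81308_g1, c87655_g2 and c88960_g1 were higher at 0 h by 1.41, 1.38, 1.33 and 1.20. Relative to 0 h they were called at 2.31, 3.09, 3.53 and 3.49, and c90715_g3 at -1.10 (adjusted p of 0.00101 to 0.0243, limma). Not called there were c85950_g1, c84211_g2, c80381_g1 and c90267_g12 (adjusted p of 0.0747 to 0.213, limma).

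The libraries of the other times are not those of 8 h and carry the same contrast. Each oxygen level had its own tanks throughout the series, so a difference between tanks may recur at every time, which was not tested. The calls of all times also come from the same fit, with a spread per gene that all times share. The overlap of calls between times, in both directions, is thus not an independent repeat of the 8 h result. Taking the 570 rises of 8 h, 528 were on the higher side at 4 h (92.6%, against 55.2% of all tested genes), with a median log2 change of 0.69. At 12 h 540 were (94.7%, against 51.2%), with a median of 1.37, and at 24 h 522 were (91.6%, against 53.2%), with a median of 1.27. Most of the 8 h rises were thus in the same direction at each other time, with a smaller median at 4 h. Called higher at 4 h were 140 of the 570, which is 24.6% of the 8 h list and 79.5% of the 176 genes called higher at 4 h (6.63% of all tested, or 9.56% with both directions). At 12 h, 459 were called higher, 80.5% of the 8 h list and 47.0% of the 977 of that time (36.8% of all tested, or 70.3% with both directions). At 24 h, 415 were, 72.8% of the 8 h list and 38.4% of the 1082 of that time (40.7% of all tested, or 66.7% with both directions).

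For the 495 genes called lower at 8 h, 431 were on the lower side at 4 h (87.1%, against 44.4% of all tested genes), with a median log2 change of -0.50. At 12 h 485 were (98.0%, against 47.9%), with a median of -1.22, and at 24 h 449 were (90.7%, against 46.2%), with a median of -0.76. The falls of 8 h were nearly all falls at 12 h in sign, and their median was nearer 0 at 24 h than at 8 or 12 h. Called lower at 4 h were 60 of the 495, 12.1% of the 8 h list and 76.9% of the 78 genes of that time (2.94% of all tested). At 12 h 426 were, 86.1% of the 8 h list and 47.9% of the 889 of that time (33.5% of all tested). At 24 h 260 were, 52.5% of the 8 h list and 37.7% of the 689 of that time (25.9% of all tested), and 12 genes were called there in the opposite direction. Both lists were chosen at 8 h, so their medians at 8 h are not on equal terms with those of the other times.

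**Figure D4:**
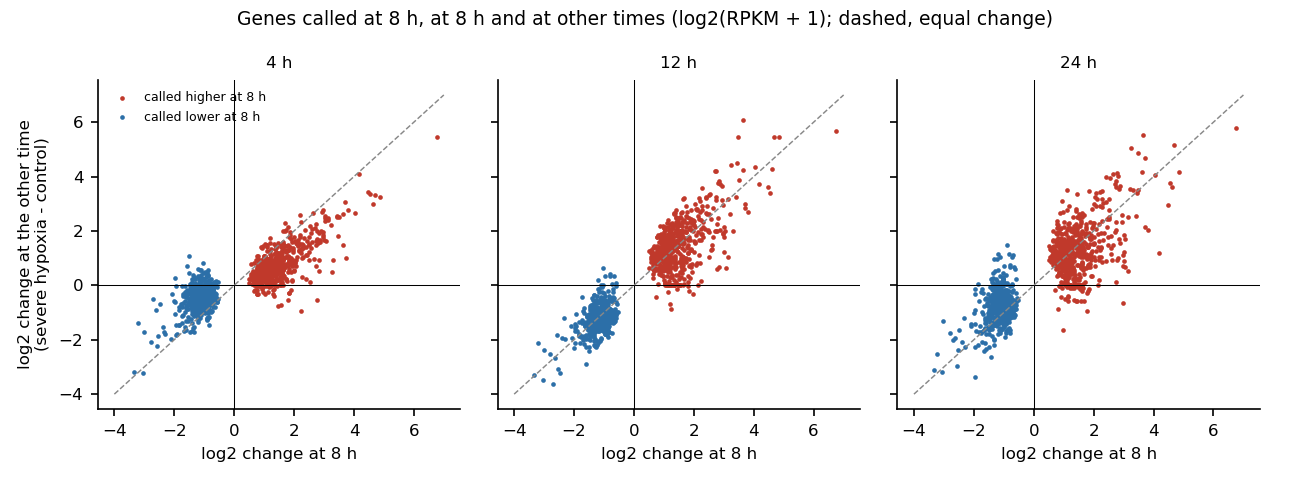
Log2 change in severe hypoxia relative to control at 4, 12 and 24 h (vertical axes of the 3 panels) against that at 8 h (horizontal axes), a point per gene, red for the 570 genes called higher and blue for the 495 called lower at 8 h; the dashed line marks equal change. Most points keep their side of 0, and the medians at 4, 12 and 24 h are 0.69, 1.37 and 1.27 for the red genes and -0.50, -1.22 and -0.76 for the blue ones.

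Few genes were called for a response at 8 h that differed from the mean of the responses at 4 and 12 h. There were 17 (0.64%), all larger on the higher side at 8 h, with 113 at an unadjusted p under 0.05, and 15 of the 17 belonged to the set of 23 genes. Without control 8 h replicate 3 there were 25, of which 22 were in the set. As the set was chosen for reads at 8 h and few reads at other times, its share of these calls restates that choice. The count was 10 without severe 8 h replicate 1 and 5 without control 8 h replicate 1 or 2, and voom called 0, with 93 at an unadjusted p under 0.05. This contrast has a larger error than the comparison at 8 h alone. It also takes in control 4 h, the group with the highest median SD (0.552), so genes not called may still differ.

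The other genes of the 17 were c81192_g1 and c86575_g4. The gene c81192_g1 (2471 bp) had 11.4, 6.87 and 10.7 RPKM in severe hypoxia at 8 h, against 0.180, 1.03 and 0.479 RPKM in control, a log2 change of 2.78 (SE 0.42, adjusted p = 7.98e-06, limma). The groups were wide apart. Its log2 change was -0.53 at 4 h, 1.99 at 12 h and 4.12 at 24 h, so it was larger still at 24 h. Relative to the mean of 4 and 12 h, the 8 h change was larger by 2.05 (SE 0.51, adjusted p = 0.0491, limma), a call that ended when any 1 of the 8 h libraries other than severe replicate 2 was left out (adjusted p of 0.0695 to 0.276). It ended too with a pseudocount of 0.1 (0.198), a replicate block (0.157) and voom (0.599).

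The gene c86575_g4 (1273 bp) had 18.9, 21.3 and 21.5 RPKM in severe hypoxia at 8 h, against 8.05, 5.07 and 15.9 RPKM in control, a log2 change of 1.15 (SE 0.28, adjusted p = 0.00196, limma). The severe libraries were alike and above the control libraries, of which replicate 3 was the nearest. The control groups of the other times averaged 12.9 to 16.6 RPKM. Against the mean of control at 4 and 12 h the severe 8 h libraries were higher by 0.48 on the log2 scale, which was not called (adjusted p = 0.0996, limma). The value of 1.39 by which its 8 h change exceeded the mean of 4 and 12 h (SE 0.34, adjusted p = 0.0414, limma) lost its call when any 1 of the 8 h libraries other than control replicate 3 was left out (adjusted p of 0.0921 to 0.393). It lost it too with a pseudocount of 0.1 (0.0693), quantile normalization (0.0645), a replicate block (0.0536) and voom (0.0735).

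**Figure D5:**
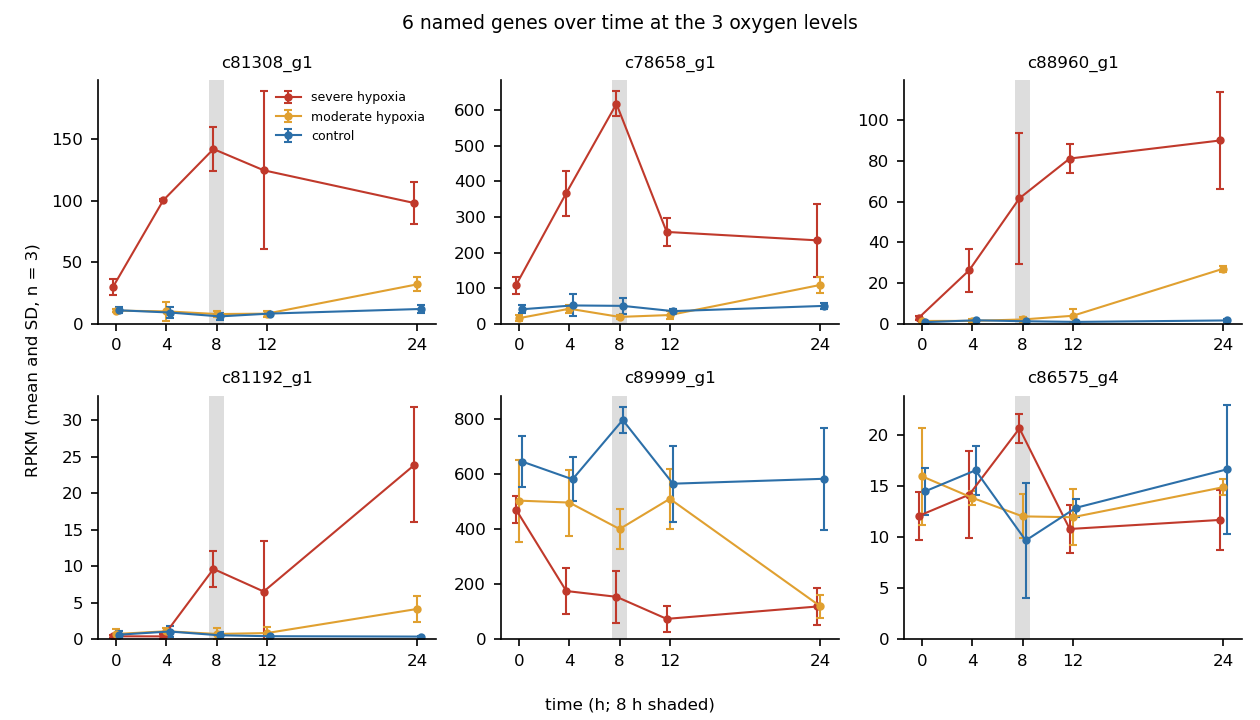
Mean level in RPKM (linear axes, 1 panel per gene) at 0, 4, 8, 12 and 24 h for 6 named genes in severe hypoxia (red), moderate hypoxia (orange) and control (blue), with error bars of 1 SD (n = 3) cut at 0 and the 8 h sampling shaded. For c86575_g4 the severe mean at 8 h is 20.6 RPKM, against 9.66 RPKM in control, and at the other times the severe mean is below the control mean.

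The control libraries of 8 h were also set against those of the neighbouring times. Control 8 h against the mean of control 4 and 12 h gave 0 called genes by limma and 0 by voom, while 88 and 91 genes had an unadjusted p under 0.05. The severe 8 h libraries set against the mean of control 4 and 12 h gave 740 higher genes (27.9%) and 554 lower genes (20.9%), together 48.7%. Of the genes called against control 8 h, 534 of the 570 higher ones (93.7%) and 413 of the 495 lower ones (83.4%) were called there as well. Both contrasts share the severe libraries.

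At 8 h of moderate hypoxia, 5 genes were called higher (0.188%) and 1 lower (0.0377%) against the same control libraries, 0.226% in all, while 427 had an unadjusted p under 0.05 and voom called 0. Over the 570 genes higher in severe hypoxia the median log2 change in moderate hypoxia was 0.42, and over the 495 lower genes it was -0.48, from control libraries that both comparisons share. Severe differed from moderate hypoxia in 247 higher (9.3%) and 116 lower genes (4.37%), together 13.7%. For c87655_g2 the moderate 8 h libraries had 2.85, 1.12 and 4.85 RPKM, for c88960_g1 they had 2.51, 0.621 and 3.06 RPKM, and for c81308_g1 they had 8.08, 5.13 and 10.3 RPKM. For c89999_g1 they had 317.2, 435.1 and 452.1 RPKM, above all severe and below all control libraries. For c78658_g1 they had 16.8, 14.3 and 25.9 RPKM, far below all severe libraries.

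Of the genes without a value in control 8 h replicate 2, 34 of 133 were called (25.6%), against 1031 of 2523 genes with all values (40.9%). The former had 2 control libraries instead of 3 and a median SE of 0.361, against 0.336, so these shares are not on equal terms. Of the 34, 21 were higher and 13 lower. With a mean of at least 5 RPKM, the largest rises were c92117_g1 (1372 bp), with 34.1, 9.11 and 19.3 RPKM in severe hypoxia, against 0.416 and 0.513 RPKM in control, and c92067_g1 (1525 bp), with 33.6, 50.6 and 104.1 RPKM in severe hypoxia, against 7.10 and 6.78 RPKM in control. Their log2 changes were 3.72 (SE 0.64, adjusted p = 5.08e-05, limma) and 2.85 (SE 0.60, adjusted p = 0.000522, limma). In both genes the 3 severe libraries lay above the 2 control libraries.

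The largest falls among these genes were c92102_g1 and c91751_g3. The gene c92102_g1 (1738 bp) had 1.69, 0.209 and 0.109 RPKM in severe hypoxia, against 14.6 and 12.0 RPKM in control, a log2 change of -3.22 (SE 0.85, adjusted p = 0.00392, limma). The gene c91751_g3 (4342 bp) had 6.32, 4.85 and 8.38 RPKM in severe hypoxia, against 28.0 and 20.0 RPKM in control, a log2 change of -1.74 (SE 0.60, adjusted p = 0.0204, limma). At 8 h the groups did not overlap in either gene. Control 4 h replicate 2 had 0.84 RPKM of c92102_g1, within its severe 8 h range. Relative to 0 h, c92117_g1 was called at 2.95 (adjusted p = 0.0369, limma). Not called there were c92067_g1, c92102_g1 and c91751_g3 (adjusted p of 0.0712, 0.243 and 0.323, limma). The call of c91751_g3 ended without severe 8 h replicate 2 (adjusted p = 0.0634) or control 8 h replicate 1 (adjusted p = 0.122), and its log2 change was -1.13 at 4 h (adjusted p = 0.173, limma), -0.43 at 12 h and -0.14 at 24 h.

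Calls were spread over the whole range of levels and lengths. Of genes under 1 RPKM in the mean of the 6 libraries, 12 of 79 were called (15.2%). The share was 44.3% of 1080 genes at 1 to 5 RPKM, 38.0% of 1138 at 5 to 20 RPKM, 39.7% of 310 at 20 to 100 RPKM and 38.8% of 49 above 100 RPKM. At 20 to 100 RPKM, 83 called genes were higher and 40 lower, and above 100 RPKM 10 were higher and 9 lower. By length, 35.4% of genes up to 1460 bp were called and 44.9% of genes over 4044 bp, and between these bounds 41.4% up to 2592 bp and 38.7% above it. These shares are descriptions, and the reads behind a gene grow with its length and level.

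Genes of the same assembled component may share reads. In components with several listed genes, 27.5% of 743 genes were called higher and 14.4% lower, against 19.1% higher and 20.3% lower among 1913 genes that were the single listed gene of their component. Of 329 components with at least 2 tested genes, 92 had at least 2 called genes. In 59 of these the called genes were all higher, in 21 all lower, and in 12 both directions occurred. Levels of genes of the same component are uncertain where the counting could split reads between them.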

How the data were processed

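Liver RNA libraries (TruSeq kit, 125-bp paired-end reads) were sequenced and the reads assembled by Trinity without a reference genome, per the labels' protocols. The aligner, the read counter and the choice of listed genes were not given in the sources used here. Deposited RPKM values, 1 table per library, carry no unit in the file headers, and the unit was read from the values. With whole-number gene lengths (204 to 29856 bp) and library totals, each of the 117443 values above 0 gave a whole number of reads within 0.01, a procedure tested on simulated data. A gene was kept if 3 or more libraries reached 1 RPKM (2656 of 2660). Levels as log2(RPKM + 1) were fitted with limma 3.58.1 in R 4.3.3, with 15 group means over 45 libraries, an intensity trend and Benjamini-Hochberg adjustment. Values missing from control 8 h replicate 2 stayed missing, so these genes were fitted without that library. The planned count test was not used, since the files hold RPKM. Figures were drawn with matplotlib 3.10.9.

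Genes named were, per list, at most 2 rises and 2 falls with a mean of at least 5 RPKM over the 6 libraries: the largest log2 change, the largest difference in RPKM and the smallest p among called genes whose groups did not overlap; the largest change relative to 0 h; the largest difference between 8 h and the mean of 4 and 12 h; and the largest change among genes missing from control 8 h replicate 2. The comparison, the lists and the gene set were chosen with earlier results of these data known.

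Alternatives were other pseudocounts, filters, thresholds, scalings and controls, limma-voom on the recovered reads, a model of the 6 libraries, a replicate block and leaving out each 8 h library.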

Additional observations from a re-analysis of the deposited data

Results flagged for a closer look

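Severe hypoxia differed from moderate hypoxia at 8 h in 363 genes (13.7% of all tested genes), tested as the difference itself in limma. The genes named here were chosen by values of the same severe 8 h libraries. Their calls in this contrast are thus partly fixed by that choice and are no separate evidence. Among the 19 genes of the naming lists the log2 difference, severe minus moderate, was 6.83 for c84833_g1, 4.99 for c78658_g1, 4.75 for c78926_g1, 4.30 for c88960_g1, 4.13 for c87655_g2 and 4.05 for c81308_g1. It was 3.79 for c92117_g1, 2.93 for c92067_g1 and 2.66 for c81192_g1. On the lower side it was -2.55 for c90267_g12, -1.54 for c89999_g1 and -1.05 for c90715_g3. The other 7 genes of these lists were not called: c85950_g1 at 1.002 (adjusted p = 0.174, limma), c86575_g4 at 0.74 (0.0737), c91751_g3 at -0.83 (0.333), c84211_g2 at -1.13 (0.23), c79836_g1 at -1.14 (0.0647), c80381_g1 at -1.67 (0.137) and c92102_g1 at -1.97 (0.0822). Of the genes near 0 in severe hypoxia, c91156_g6 was called at -1.06 (adjusted p = 0.0322, limma). Not called were c76490_g1 at -0.90 (0.181) and c84026_g1 at -0.70 (0.154).

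The response to severe hypoxia at 8 h differed from the mean of those at 4 and 12 h in 17 genes, again tested as the difference itself in limma. The log2 difference was 2.05 for c81192_g1 and 1.39 for c86575_g4, and the other 15 genes belonged to the set of 23 described above. Voom called 0 genes in this contrast.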

How the results depend on the processing

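None of the values of the genes of the naming lists reversed its direction. Among all 1065 genes called at 8 h, 1 changed sign under any alternative: c90755_g4, at -0.95 against control 8 h and 0.10 against the mean of control 4 and 12 h (adjusted p = 0.792, limma). The 1065 calls stayed between 851 and 1294 under the other pseudocounts, filters, scalings, models and controls. Adjusted p under 0.01 left 604 calls, 368 higher and 236 lower, and a 2-fold minimum left 323 of the lower ones. Leaving out 1 library each gave 758 to 956 calls, 428 to 520 higher and 330 to 436 lower. Quantile normalization moved the median log2 change of all genes to -0.08, with 47.1% of 1145 calls on the higher side instead of 53.5%.

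Relative to 0 h, the 140 calls (102 higher, 38 lower) were 90 with a pseudocount of 0.1 (61 higher), 222 after quantile normalization (88 lower) and 32 with voom (17 higher, 15 lower), and 51 to 131 without 1 library (41 to 102 higher, 10 to 36 lower). For 8 h against 4 and 12 h, the 17 calls were 7 with a pseudocount of 0.1 and 0 with voom, and 5 to 25 without 1 library (5 to 24 higher, 0 to 1 lower), and quantile normalization gave 1 lower. Voom in these contrasts was added after seeing the data, and the causes were not tested.

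Same-numbered severe and control libraries did not deviate together (r of -0.107, 0.00191 and 0.0261 over genes), so the numbers were not taken to pair samples of the 2 levels. Between 8 h and the other times within severe hypoxia or within control, r of same-numbered libraries ran from -0.357 to 0.667 (median -0.00354), over 0.1 in 8 of 24 pairs. For control replicate 2 it was 0.388, 0.667 and 0.408 with 0, 4 and 12 h, and -0.357 with 24 h. Within severe hypoxia the highest value was 0.323, for replicate 1 with 4 h. The contrasts across times took these libraries as independent. The replicate block joined same-numbered libraries of different oxygen levels within a time, and none across times. It gave 1051 calls at 8 h (570 higher, 481 lower), 123 relative to 0 h (24 lower) and 10 for 8 h against 4 and 12 h (10 higher).

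Of 334 values of the 19 genes of the naming lists at 8 h, 8 lost the call, all given above. A pseudocount of 5 brought low genes nearer 0: -1.63 for c90267_g12, -1.62 for c80381_g1, -1.29 for c79836_g1, 1.39 for c81192_g1, 2.12 for c92117_g1 and -1.70 for c92102_g1. Voom gave 4.37 for c81192_g1. Summed level differed by 1016 to 3752 RPKM and genes with a read by 13.3 to 25.8 without 1 library. Without the 23 genes, genes with a read differed by 2.67, an alternative added after seeing the data. The choice of the 23 genes by reads in severe 8 h libraries largely fixed that value. Depth limits the falls to low levels, where a library had as few as 4 reads.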
